A study of Caenorhabditis elegans with 15 samples.

Results

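The pud genes of Caenorhabditis elegans (pud-1.1, pud-1.2, pud-2.1, pud-2.2, pud-3 and pud-4) are 6 of the 26173 genes named on the array and were read on 6 of its 29317 probe sets, taken as every probe set that the platform annotation assigns to a listed gene, alone or shared by 2 of them. Probe sets 18567238 and 18598700, named pud-1 probe set A and pud-1 probe set B here, are both assigned to pud-1.1 and pud-1.2 together, so that these genes could not be told apart. Probe sets 18567241 and 18587324 are both assigned to pud-2.1 and pud-2.2 and had identical values on all 15 arrays, so they were counted once as pud-2. Probe set 18587327 reads pud-3 and probe set 18567233 reads pud-4, which leaves 5 distinct measurements. The genes were listed because of their levels against the control on these same arrays, and the study had itself picked some of them there. Values against the control are therefore a description without a test, while the treatments were tested against each other. The treated arrays entered that choice too, so the tests between treatments are not independent of it.

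The study exposed whole young adult worms of the wild-type strain N2 for 6 h at 20 °C in M9 buffer to a herbal anthelmintic, and measured their total RNA on the Affymetrix Gene 1.0 ST array for C. elegans. There were 5 groups of 3 arrays: RE, the crude ethanol and water extract from leaves of Combretum mucronatum; the control (labelled NK) in 1% DMSO; and fraction H3 of that extract, enriched in oligomeric procyanidins (plant tannins built of catechin units), at 0.02, 0.2 and 2 mg/mL (H3 0.02, H3 0.2 and H3 2 here). By the methods DMSO was also the solubilizer of the test solutions, so all 5 groups shared it. The concentration of RE is 0.2 mg/mL in the sample titles and in the methods but 2 mg/mL in the treatment label, so RE was set against both H3 0.2 and H3 2. Values are log2 expression levels per probe set, normalised by the authors, and the number of arrays limits their precision.

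The name pud stands for protein upregulated in daf-2: PUD-1 and PUD-2 were found as proteins that accumulate when DAF-2, the insulin/IGF-1 receptor of the worm, is mutated and the animals live long. They are small proteins that pair with each other as a heterodimer and are made mainly in intestine and hypodermis, whereas PUD-3 and PUD-4 are related proteins with other expression patterns. The family is known only from Caenorhabditis, and its molecular function is not settled. The 6 genes form 1 cluster on chromosome V. In assembly WBcel235, as RefSeq annotates it, pud-1.2 (Y19D10B.7) lies at 2322038 to 2322566, pud-2.2 (F15E11.14) at 2323014 to 2323524, pud-3 (F15E11.15) at 2324634 to 2325152, pud-4 (F15E11.12) at 2326678 to 2327282, pud-2.1 (F15E11.1) at 2329444 to 2329954 and pud-1.1 (F15E11.13) at 2330429 to 2330930. All 6 are protein coding and they span 8.89 kb. No other gene is annotated between them, apart from piRNA genes, which were left out and not looked for.

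The arrays fell into 2 sets along a principal component with 52.0% of the variance, set A with 8 arrays and set B with 7. The sets were read from the values and are not given in the labels. In the order of the deposited samples, all arrays of set A come before those of set B. The control, H3 0.02 and H3 2 have replicates 1 and 2 in set A and replicate 3 in set B, while RE and H3 0.2 have replicate 1 in set A and replicates 2 and 3 in set B. Averaged over 14 intestine markers (such as the transcription factor gene elt-2 and the esterase gene ges-1), the log2 level was 7.49 to 7.71 in set B and 8.35 to 8.71 in set A. Averaged over 11 hypodermis markers it was 7.09 to 7.50 in set B and 7.73 to 8.14 in set A, over 6 probe sets of major sperm proteins 7.27 to 8.29 in set B and 8.31 to 8.91 in set A, and over 7 oocyte markers 10.68 to 10.98 in set B and 9.19 to 9.81 in set A. Most pud values also moved with the sets, since set B minus set A within a group was below 0 in 21 of 25 values. The exceptions were pud-3 in RE (0.06), at H3 0.02 (0.10) and at H3 0.2 (0.70), and pud-4 in RE (0.29). These values are not independent of each other, and the share over all probe sets was not computed. In whole worms, fewer cells of a type and less RNA per cell cannot be told apart. Differences between treatments were therefore also fitted with the set as a block, and computed within each set.

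Transcripts of pud-1 and pud-2 were at 6.62 to 49.7 times lower levels after treatment than in the control. Both pud-1 probe sets and pud-2 had their lowest group means at H3 2. On pud-1 probe set A the log2 values were 6.58, 5.85 and 6.73 in RE, and along the H3 series 11.45, 11.50 and 10.29 in the control, 8.58, 8.69 and 6.90 at H3 0.02, 6.64, 5.35 and 7.08 at H3 0.2, with 5.40, 5.59 and 5.35 at H3 2. No treated array reached the lowest control array. Among the treatments, H3 2 lay below every array of H3 0.02 and of RE, whereas H3 0.2 overlapped with all 3 other treatments.

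pud-1 probe set B gave the same order of groups, with log2 values of 6.19, 5.35 and 6.12 in RE, and 11.03, 10.96 and 9.73 in the control, 8.02, 8.10 and 6.35 at H3 0.02, 6.12, 4.90 and 6.54 at H3 0.2, with 4.93, 5.27 and 4.86 at H3 2. The log2 difference of probe set A from the control was −4.69 in RE, −3.03 at H3 0.02, −4.73 at H3 0.2 and −5.64 at H3 2 (SE 0.53 each, limma), and that of probe set B −4.69, −3.09, −4.72 and −5.55 (SE 0.52 each). On a linear scale this is 49.7-fold and 47.0-fold lower at H3 2 and 8.14-fold and 8.50-fold lower at H3 0.02. Ranked by log2 difference over all 29317 probe sets, these were the 2 lowest in RE, at H3 0.2 and at H3 2, and ranked 3 and 2 from the lowest at H3 0.02.

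For pud-2, whose protein is the partner of PUD-1, the log2 values were 7.72, 6.20 and 7.96 in RE, and 11.96, 11.92 and 10.78 in the control, 9.38, 9.31 and 7.78 at H3 0.02, 7.81, 5.75 and 8.02 at H3 0.2, with 6.64, 7.12 and 5.51 at H3 2. Again every treated array was below every control array, and H3 2 below every H3 0.02 array. The log2 difference from the control was −4.26 in RE, −2.73 at H3 0.02, −4.36 at H3 0.2 and −5.13 at H3 2 (SE 0.69 each), which is 35-fold lower at H3 2. It ranked 3 from the lowest in RE, at H3 0.2 and at H3 2, and 6 at H3 0.02.

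pud-3 and pud-4, the genes in the middle of the cluster, had smaller log2 differences from the control at H3 0.2, at H3 2 and in RE. pud-3 had log2 values of 2.29, 2.24 and 2.45 in RE, and 5.35, 6.61 and 4.08 in the control, 2.73, 2.42 and 2.68 at H3 0.02, 1.97, 2.49 and 2.85 at H3 0.2, with 2.43, 2.13 and 1.89 at H3 2. The control arrays were spread over more than 2 log2 units, yet all lay above all treated arrays. All 12 treated arrays were below the median of their array (3.54 to 3.65), so pud-3 was not shown to be above background after any treatment, and its log2 differences of −3.02 in RE, −2.74 at H3 0.02, −2.91 at H3 0.2 and −3.20 at H3 2 (SE 0.46 each) are at best lower bounds of the fold. They also depend on single control arrays, being −3.83 at H3 2 without control replicate 3 and −2.57 without control replicate 2.

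pud-4 had log2 values of 3.40, 2.67 and 4.71 in RE, and 6.56, 6.60 and 4.96 in the control, 3.70, 3.55 and 2.76 at H3 0.02, 3.85, 2.55 and 5.03 at H3 0.2, with 2.72, 3.72 and 1.87 at H3 2. Here replicate 3 of H3 0.2 reached above the lowest control array, and replicate 3 of RE was highest of its group too. The log2 difference from the control was −2.45 in RE, −2.70 at H3 0.02, −2.23 at H3 0.2 and −3.27 at H3 2 (SE 0.70 each). Of the 12 treated arrays 7 were below the median of the array, so that these differences too can be lower bounds.

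**Figure D1:**
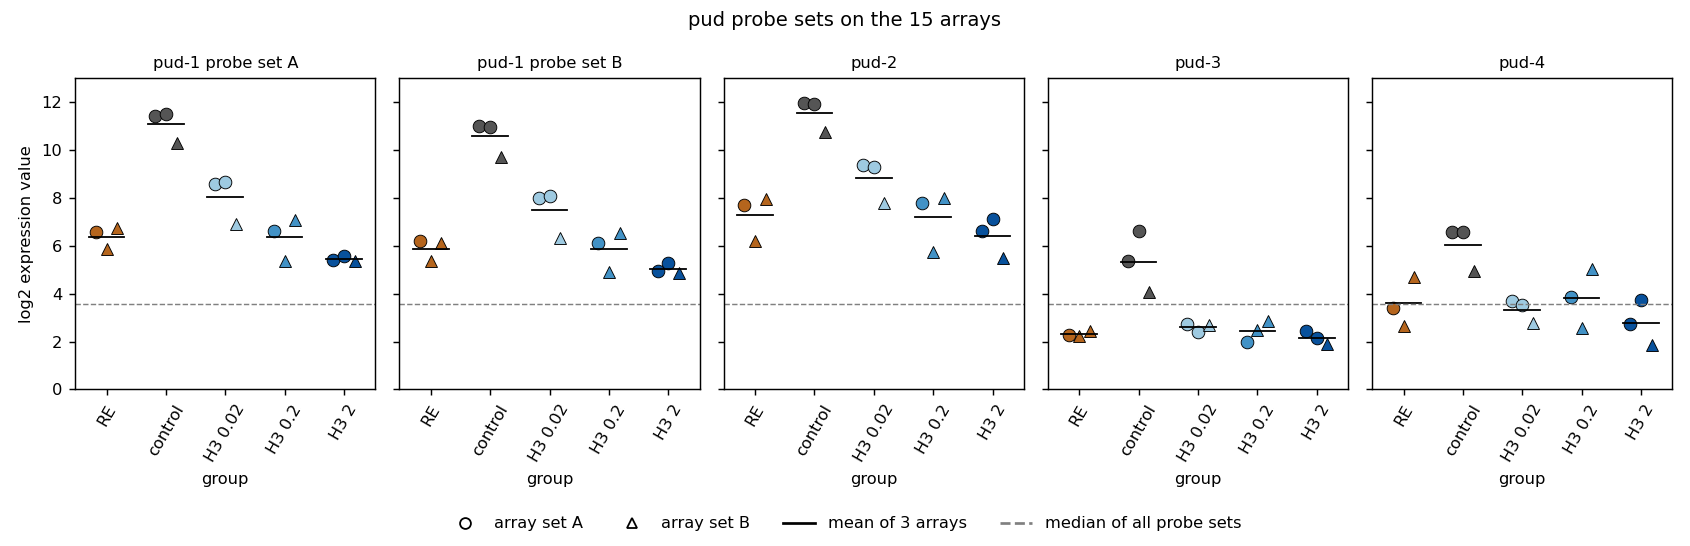
Log2 expression value (vertical axis) of the 5 distinct pud probe sets, 1 panel each, in RE, the control and the H3 series (0.02, 0.2 and 2 mg/mL). Points are single arrays, circles for array set A and triangles for array set B, short lines are means of 3 arrays, and the dashed line is the median over arrays of the array medians. The control points lie highest in each panel except that 1 H3 0.2 array of pud-4, at 5.03, is above the lowest control array at 4.96.

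By limma (adjusted p not above 0.05, fold of at least 2), 4 of the 5 measurements were called lower in RE, 3 at H3 0.02, 4 at H3 0.2 and 5 at H3 2. Over all probe sets the shares called lower were 0.536%, 0.321%, 0.641% and 0.901%, in the same order. pud-4 was the measurement not called in RE and at H3 0.2, and pud-2 and pud-4 those not called at H3 0.02. Every treated array was below every control array for 5 of 5 measurements in RE, at H3 0.02 and H3 2, and for 4 of 5 at H3 0.2, against 6.1% of all probe sets in RE, 5.16% at H3 0.02, 6.18% at H3 0.2 and 7.13% at H3 2. Because the genes were listed for this contrast, nothing is read from these shares. The 4 comparisons share the control arrays. At H3 0.02 the count was 0 without control replicate 1 and 1 without control replicate 2. Over all probe sets the number called lower there fell as well, from 94 to 56 and 55.

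Blocked by array set, the counts were 4 in RE (0.986% of all probe sets called lower), 5 at H3 0.02 (0.624%), 4 at H3 0.2 (1.03%) and 5 at H3 2 (1.62%). The block left the differences of H3 0.02 and H3 2 as they were and gave −4.44 in RE and −4.47 at H3 0.2 for pud-1 probe set A, −3.88 and −3.98 for pud-2, −2.93 and −2.82 for pud-3 and −2.21 and −1.99 for pud-4. Within the sets, pud-1 probe set A differed from the control at H3 2 by −5.99 in set A (2 arrays against 2) and −4.93 in set B (1 against 1), and pud-2 by −5.06 and −5.27. pud-3 differed more between the sets, by −3.41 in set A and −1.41 in set B at H3 0.02, by −4.01 and −1.41 at H3 0.2, and by −3.69 and −1.74 in RE. pud-4 differed by −2.73 and −1.17 at H3 0.2 and by −3.18 and −1.28 in RE. In the control, the single array of set B minus the mean of set A was −1.90 for pud-3, −1.62 for pud-4 and −1.27 to −1.16 for the others.

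**Figure D2:**
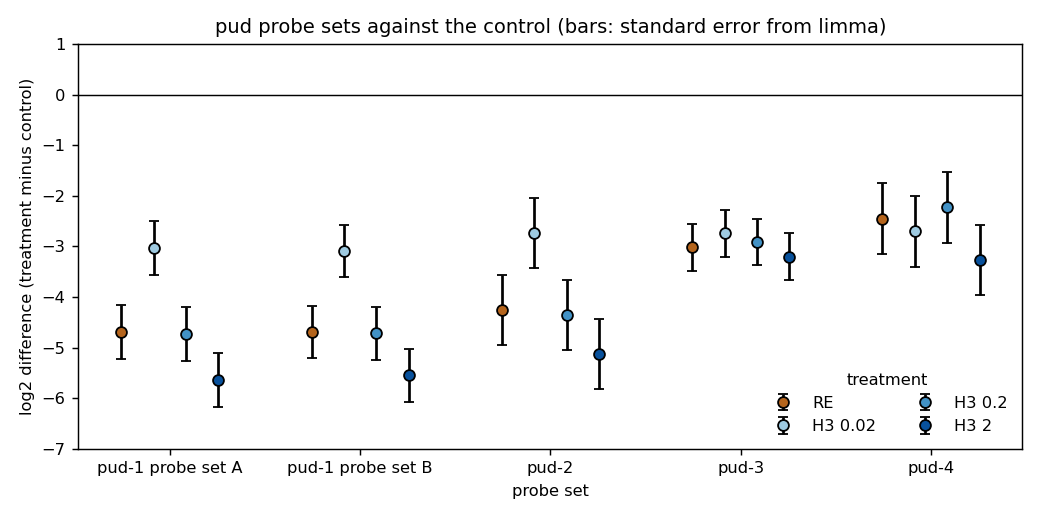
Log2 difference from the control (vertical axis) of the 5 distinct pud probe sets in RE and at H3 0.02, 0.2 and 2 mg/mL, with bars of 1 standard error from limma over 15 arrays. Both pud-1 probe sets and pud-2 lie lower with each step of H3 and RE lies beside H3 0.2, whereas the points of pud-3 lie between −3.20 and −2.74 and those of pud-4 between −3.27 and −2.23.

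Markers of intestine and hypodermis, where PUD-1 and PUD-2 are known to be made, were read beside these values. The mean log2 level of the 14 intestine markers was 7.55 to 8.45 in RE, and 7.63 to 8.71 in the control, 7.49 to 8.46 at H3 0.02, 7.65 to 8.35 at H3 0.2, with 7.61 to 8.49 at H3 2. That of the 11 hypodermis markers was 7.09 to 8.06 in RE, and 7.19 to 8.07 in the control, 7.36 to 8.14 at H3 0.02, 7.18 to 7.97 at H3 0.2, with 7.42 to 8.12 at H3 2. The ranges of all groups overlapped where the array sets were pooled. Within set A the mean level of the intestine markers was 8.35 to 8.49 on the 6 treated arrays, below the 8.64 and 8.71 of the control, and within set B it was 7.49 to 7.71 on 6 treated arrays, around the 7.63 of the single control array. That of the hypodermis markers was 7.90 to 8.14 on the treated arrays of set A, against 7.73 and 8.07 in the control, and 7.09 to 7.50 on those of set B, against 7.19. The median log2 difference of the 14 intestine markers from the control was −0.31 in RE, −0.04 at H3 0.02, −0.21 at H3 0.2 and −0.05 at H3 2, and that of the 11 hypodermis markers −0.14, 0.10, −0.09 and 0.03. By limma without the block 0 of either list were called, and with an unadjusted p under 0.05 there were 3 intestine markers in RE, 1 at H3 0.02, 2 at H3 0.2 and 3 at H3 2, and 0 hypodermis markers. The share of all probe sets with an unadjusted p under 0.05 was not computed. With the block 2 of the 14 intestine markers were called lower in each of the 4 comparisons, pept-1, a peptide transporter gene, at −1.36 to −1.11, and pho-1, an acid phosphatase gene, at −1.98 to −1.77, beside 0.986% of all probe sets in RE, 0.624% at H3 0.02, 1.03% at H3 0.2 and 1.62% at H3 2. In the same fit the intestine markers ifo-1, eps-8 and nhx-2 were higher at H3 2, at 0.82, 0.78 and 0.79. Their limma adjusted p was 0.000465, 0.00184 and 0.00328, and only the fold kept them from a call. The hypodermis marker nhr-25 was called higher at H3 2 with the block, at 1.08, beside 1.48% of all probe sets. The medians of the sperm markers were −0.20, −0.02, −0.12 and −0.13 and those of the oocyte markers 0.39, −0.12, 0.45 and −0.12. The part of these markers in the pud values was not tested.

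Differences between concentrations of H3, which do not use the control arrays, followed the values above for pud-1 and pud-2. The H3 arrays entered the choice of the genes too, and the order of concentrations for pud-1.1 was known from the study. The p values given here are therefore not fresh tests. Between H3 2 and H3 0.02 the log2 difference of pud-1 probe set A was −2.61 (95% confidence interval −3.75 to −1.47, limma adjusted p = 0.254 over all probe sets), that of probe set B −2.47 (−3.60 to −1.33, adjusted p = 0.292) and that of pud-2 −2.40 (−3.90 to −0.90, adjusted p = 0.707). None of the 5 measurements was called, 3 had an unadjusted p under 0.05, and 0.00682% of all probe sets were called lower and 0.0307% higher. The 3 were pud-2 and both pud-1 probe sets, which read the same genes. The share of all probe sets with an unadjusted p under 0.05 was not computed. For the same 3 every H3 2 array was below every H3 0.02 array, as for 3.53% of all probe sets. Blocked by array set, both pud-1 probe sets passed (adjusted p = 0.0272 each), among 0.058% of probe sets called lower, while pud-2 did not (adjusted p = 0.101). Computed on set A arrays alone it came to −3.14 for pud-1 probe set A, −2.96 for probe set B and −2.47 for pud-2, and on set B arrays alone, 1 against 1, to −1.55, −1.49 and −2.27. With only the 6 arrays of the 2 groups, pud-1 probe set A had an adjusted p of 0.935 by limma. The sets were read from these same values, so that the p of the blocked fit rests on a grouping the labels do not give.

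For pud-3 and pud-4 no order of H3 concentrations could be read. Between H3 2 and H3 0.02 the log2 difference of pud-3 was −0.46 (95% confidence interval −1.45 to 0.53) and that of pud-4 −0.57 (−2.09 to 0.96), both with limma adjusted p = 1.0. For pud-3 the intervals are those of values below the array median in both groups. At the lower step, H3 0.2 minus H3 0.02, the log2 difference was −1.70 (−2.84 to −0.56) for pud-1 probe set A, −1.63 (−2.76 to −0.50) for probe set B, −1.63 (−3.14 to −0.13) for pud-2, −0.17 (−1.16 to 0.82) for pud-3 and 0.47 (−1.05 to 2.00) for pud-4. At the upper step, H3 2 minus H3 0.2, it was −0.91 (−2.05 to 0.23), −0.83 (−1.97 to 0.30), −0.77 (−2.27 to 0.73), −0.29 (−1.28 to 0.70) and −1.04 (−2.57 to 0.48). No probe set of the array was called lower in either step (0.0%), with or without the block. The groups overlapped for all 5 measurements in both steps, whereas 2.65% of all probe sets were lower on every array at the lower step and 3.64% at the upper. The unadjusted p was under 0.05 for 3 measurements at the lower step (both pud-1 probe sets and pud-2) and for 0 at the upper step. The share of all probe sets with such a p was not computed.

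RE and H3 0.2 could not be told apart on any pud measurement. RE minus H3 0.2 was 0.03 (95% confidence interval −1.11 to 1.17) for pud-1 probe set A, 0.04 (−1.1 to 1.17) for probe set B, 0.10 (−1.40 to 1.6) for pud-2, −0.11 (−1.1 to 0.88) for pud-3 and −0.22 (−1.75 to 1.31) for pud-4. The widest intervals were those of pud-2 and pud-4, and the groups overlapped for all 5, while 3.12% of all probe sets were lower on every RE array. RE minus H3 2 was 0.94 (−0.20 to 2.08), 0.87 (−0.26 to 2.00), 0.87 (−0.63 to 2.37), 0.18 (−0.81 to 1.17) and 0.82 (−0.70 to 2.35) in the same order of genes. No probe set was called lower in either comparison (0.0%), the limma adjusted p of the pud measurements was 0.977 or above, and for 0 of them was the unadjusted p under 0.05. With the block the intervals of RE minus H3 2 lay above 0 for pud-1 probe set A (0.28 to 2.11), probe set B (0.28 to 2.01) and pud-2 (0.15 to 2.35), with limma adjusted p of 0.906, 0.906 and 0.911. Every RE array was above every H3 2 array for both pud-1 probe sets, 2 of 5 measurements, as for 2.93% of all probe sets. None of the 5 was lower on every RE array, against 3.93% of all probe sets.

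**Figure D3:**
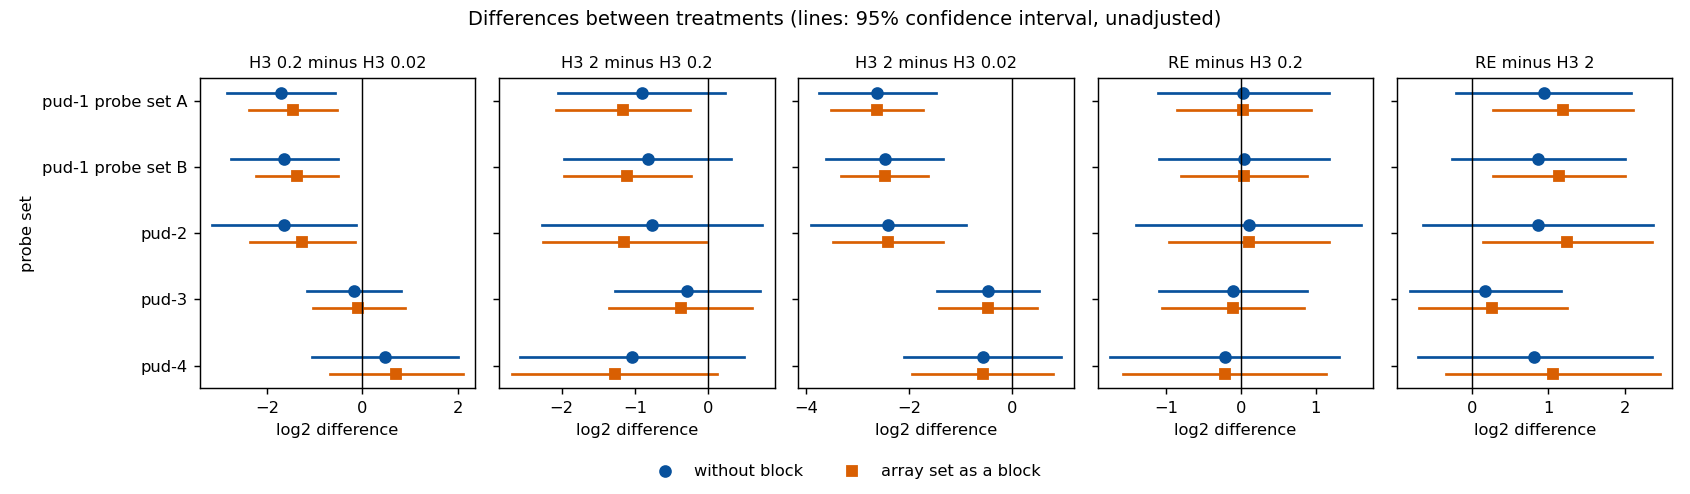
Log2 difference between 2 treatments (horizontal axis, titles give the direction) of the 5 distinct pud probe sets, without a block (circles) and blocked by array set (squares), with 95% confidence intervals not adjusted for many tests. Both pud-1 probe sets and pud-2 lie left of 0 in H3 2 minus H3 0.02 with and without the block, and all intervals of RE minus H3 0.2 include 0.

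Within an array, both pud-1 probe sets kept a nearly fixed distance, probe set A being 0.31 to 0.61 above probe set B on all 15 arrays. The distance of pud-2 above the mean of the pud-1 probe sets varied more, at 1.34, 0.60 and 1.53 in RE, and 0.72, 0.69 and 0.77 in the control, 1.08, 0.92 and 1.15 at H3 0.02, 1.43, 0.62 and 1.21 at H3 0.2, with 1.48, 1.69 and 0.41 at H3 2. It was above every control array on 9 of 12 treated arrays and below every control array on the other 3, replicate 2 of RE, replicate 2 of H3 0.2 and replicate 3 of H3 2, all of set B. This distance is a change within the array and says nothing of the relative abundance of both transcripts.

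Over the 15 arrays the Pearson correlation of log2 values was 0.999 between pud-1 probe sets A and B and 0.982 between pud-1 probe set A and pud-2. pud-1 probe set A correlated with pud-3 at 0.880 and with pud-4 at 0.842, and pud-3 with pud-4 at 0.838. The control arrays, the array sets and the normalisation are shared by these points, and with the 12 treated arrays alone the values were 0.998 for probe sets A and B, 0.942 with pud-2, 0.494 with pud-3, 0.487 with pud-4, and 0.423 between pud-3 and pud-4. After removal of group means, pud-1 probe set A correlated at 0.901 with pud-2, 0.808 with pud-4 and 0.367 with pud-3.

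The relatives pudl-1 and pudl-2 (pud-like genes on chromosome IV, at 2832906 to 2833379 and 2834816 to 2835286 in WBcel235) were not called against the control, with or without the block. The log2 difference of pudl-1 was −0.62 in RE, −0.24 at H3 0.02, −0.41 at H3 0.2 and −0.83 at H3 2 (SE 0.36 each), and with the sets pooled its values overlapped with the control in all 4. Within the sets they did not, being 3.60 to 4.67 on the 6 treated arrays of set A, against 4.74 and 4.94 in the control, and 4.66 to 5.28 on the 6 of set B, against 5.50 on a single control array. How many of all probe sets part in this way was not counted, and the intervals that follow are not adjusted for many tests. Blocked by array set, the log2 difference of pudl-1 was −0.86 (95% confidence interval −1.28 to −0.44) in RE, −0.24 (−0.65 to 0.18) at H3 0.02, −0.65 (−1.07 to −0.22) at H3 0.2 and −0.83 (−1.25 to −0.42) at H3 2, all smaller in size than the fold a call needed. pudl-2 differed by 0.25, 0.35, 0.40 and 0.11 (SE 0.36 each) and was below the array median on 14 of 15 arrays.

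The genes beside the cluster did not share its values. Of the 6 genes on either side, 12 in all with piRNA genes left out, 11 had a probe set (Y19D10B.8 was not analysed here). Among them were 7 irld genes, named for a domain like the ligand-binding part of the insulin receptor, and 5 annotated as pseudogenes. Each of the 11 was below the array median on 14 or 15 of 15 arrays, and none was called against the control. Their log2 differences ran from −0.57 (Y19D10B.6 in RE) to 0.65 (irld-15 in RE). Because they were not shown to be above background, a fall there could not have been seen.

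**Figure D4:**
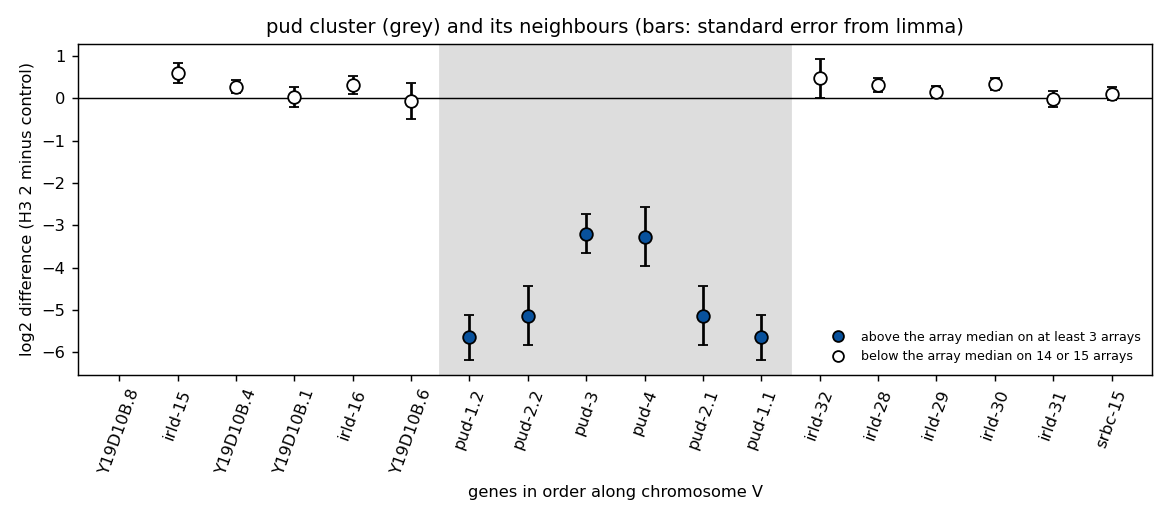
Log2 difference of H3 2 minus the control (vertical axis, bars of 1 standard error from limma) for genes in their order along chromosome V, with the 6 pud genes on grey. Open circles are genes below the array median on 14 or 15 arrays, pud-1.1 and pud-1.2 show the same shared probe set, as do pud-2.1 and pud-2.2, and the first gene has no probe set. The pud genes lie between −5.64 and −3.20, and their neighbours near 0. The lowest value is that of the probe set shared by pud-1.1 and pud-1.2, drawn at both ends, so the ends are not read separately.

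The 10 genes whose values were most like the mean of the pud-1 probe sets over the 15 arrays were T16G1.6, Y106G6D.6, spp-8 (a saposin-like protein), ugt-66 (a UDP-glucuronosyltransferase), vap-2 (of the venom allergen-like family), C10C5.3, lipl-2 (a lysosomal lipase), spig-15, R04F11.2 and pugs-8. Their Pearson correlation with it was 0.95 to 0.96 over 15 arrays, 0.80 to 0.93 over the 12 treated arrays and 0.95 to 0.98 after removal of the array-set means. These points share the control arrays, so that any gene far lower in all treatments ranks high. Of the 10 genes, 3 were also among the 10 most alike in the treated arrays alone, and 3 when set means were removed.

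The group means of all 10 lay below that of the control in every treatment, which follows from how they were chosen. By limma 9 of them were called lower in RE, 4 at H3 0.02, 9 at H3 0.2 and 9 at H3 2, and R04F11.2 in none, beside 0.536%, 0.321%, 0.641% and 0.901% of all probe sets. Their log2 differences ran from −2.70 to −0.63 in RE, −1.88 to −0.49 at H3 0.02, −2.83 to −0.64 at H3 0.2 and −3.20 to −0.85 at H3 2. vap-2 had the widest range along H3, and its mean was 5.60 ± 0.66 in RE, and 8.30 ± 0.86 in the control, 6.64 ± 0.89 at H3 0.02, 5.47 ± 0.45 at H3 0.2, with 5.10 ± 0.41 at H3 2 (SD, n = 3). spp-8 had 8.18 ± 0.22 in RE, and 9.76 ± 0.15, 8.66 ± 0.01, 8.30 ± 0.47 and 7.92 ± 0.09 along the series. Between H3 2 and H3 0.02, whose arrays also entered the choice of the 10 genes, vap-2 differed by −1.54 (limma adjusted p = 0.853) and spp-8 by −0.75 (adjusted p = 0.656). None of the 10 was called there.

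**Figure D5:**
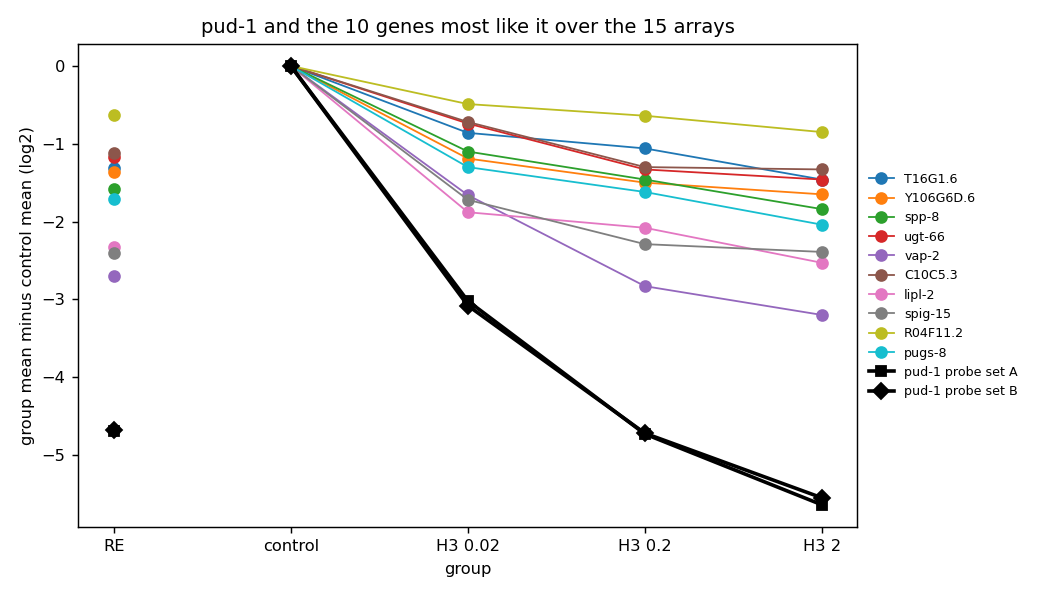
Group mean minus control mean (vertical axis, log2) for both pud-1 probe sets (black) and the 10 genes most like them over the 15 arrays, in RE and along the H3 series, with the control at 0. Every gene lies below 0 in each treatment, and both pud-1 probe sets, at −5.64 and −5.55 at H3 2, lie lower than the lowest of the others, vap-2 at −3.20.

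Because pud-1 and pud-2 carry the name of daf-2, 3 lists of genes of this pathway were set beside them. The first holds genes known to rise when DAF-2 signalling is reduced, such as the manganese superoxide dismutase gene sod-3, and 18 of its 21 genes had a probe set. Called higher were 2 in RE, 2 at H3 0.02, 2 at H3 0.2 and 3 at H3 2, beside 0.399%, 0.304%, 0.46% and 0.665% of all probe sets, and called lower were 1, 0, 1 and 0, beside 0.536%, 0.321%, 0.641% and 0.901%. The median log2 difference of the list was −0.08 in RE, 0.10 at H3 0.02, 0.01 at H3 0.2 and 0.10 at H3 2, while that of all probe sets lay within 0.02 of 0.

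The genes called higher were those of small heat shock proteins and ftn-1. The probe set of hsp-16.1 and hsp-16.11 differed from the control by 4.22 in RE, 4.33 at H3 0.02, 4.63 at H3 0.2 and 4.59 at H3 2, and that of hsp-16.48 and hsp-16.49 by 4.15, 4.31, 4.43 and 4.45 (SE 0.25 and 0.21, limma adjusted p of at most 2.06e-06). They encode chaperones induced by heat and other stress. The study had itself picked hsp-16.1, hsp-16.11 and hsp-16.48 on these arrays, so that their p is not a fresh test. ftn-1, a ferritin gene, was 1.2 log2 units higher at H3 2 (adjusted p = 0.0344), which was lost without control replicate 1 (0.0905) or 2 (0.133), without H3 2 replicate 1 (0.145) or 3 (0.0912), with only the 6 arrays (0.177) and by the test of the methods (0.0619).

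The gene called lower was mtl-1, a metallothionein gene, at −1.94 in RE (limma adjusted p = 0.0137) and −1.72 at H3 0.2 (adjusted p = 0.025). Both calls were lost with only the 6 arrays (adjusted p = 0.145 and 0.166) and on leaving out control replicate 1 (0.0809 and 0.133) or control replicate 2 (0.0533 and 0.0839). That in RE was lost also without RE replicate 2 (0.0564) or 3 (0.0669), and that at H3 0.2 without H3 0.2 replicate 2 (0.0903) or 3 (0.117). By the test of the methods mtl-1 was called in RE (adjusted p = 0.036) and not at H3 0.2 (adjusted p = 0.057). The values of mtl-1 at H3 0.02 and H3 2 were −0.98 and −1.36 (adjusted p = 0.425 and 0.0601), and with the block it was called at H3 2 too (adjusted p = 0.000932). Of the same list, cyp-35B1 differed by −0.70 in RE, −0.74 at H3 0.02, −0.74 at H3 0.2 and −0.90 at H3 2. At H3 2 its limma adjusted p was 0.0396, and only the fold kept it from a call. Its mean of 3.21 lies below the array medians. With the block dod-6 was higher at H3 2, at 0.68 (limma adjusted p = 0.0115), also with too small a fold.

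The list of genes known to fall when DAF-2 signalling is reduced, among them the vitellogenin genes vit-2 and vit-5, had 1 of 13 called lower in each comparison with the control and 0 called higher, beside the same shares of all probe sets, with medians of −0.06 in RE, −0.08 at H3 0.02, −0.01 at H3 0.2 and −0.18 at H3 2. The gene called was dod-17, which the study had itself picked on these arrays, so that its p is not a fresh test. For dod-17 the log2 differences were −1.34, −1.18, −1.66 and −1.48 (limma adjusted p = 0.00761, 0.0232, 0.0015 and 0.00283). Its mean of 2.49 lies below the array medians, and with only the 6 arrays it passed in none (adjusted p of 0.131, 0.160, 0.0609 and 0.0528). Its call at H3 0.02 was also lost on leaving out control replicate 2 (0.125) or 3 (0.0658) or any H3 0.02 replicate (0.131, 0.0723 and 0.0572). With the block, dod-19 was higher at H3 2, at 0.93, and dod-18 lower, at −0.57 (limma adjusted p = 0.00892 and 0.0241). Both folds were too small for a call.

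Of 20 genes of the insulin signalling pathway itself, from the receptor gene daf-2 and the kinase gene akt-1 to the transcription factor gene daf-16, 0 were called by limma in any comparison, with or without the block, nor by the test of the methods or another setting tried against the control. The share of all probe sets with an unadjusted p under 0.05 was not computed. Such a p was found for 1 of the 20 genes in RE, 1 at H3 0.02, 2 at H3 0.2 and 4 at H3 2. Their median log2 difference from the control was 0.07 in RE, −0.01 at H3 0.02, −0.01 at H3 0.2 and −0.02 at H3 2. With the block, ftt-2 and daf-18 had an adjusted p under 0.05 with a fold too small for a call. ftt-2 differed by 0.43 in RE, 0.48 at H3 0.2 and 0.49 at H3 2 (limma adjusted p = 0.0259, 0.0128 and 0.00667), and daf-18 by −0.48 at H3 2 (adjusted p = 0.0248).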

How the data were processed

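The deposited table holds 1 log2 expression value per array (15) and probe set (29317), made by the authors with RMA and quantile normalisation. The submitters' processing notes name Affymetrix Expression Console and Partek, with versions not given in the sources used here. They were used as deposited, and 0 value columns were left unmapped. Probe sets were named from the platform annotation (25600 with 1 gene, 592 with several and 3125 with none listed), updated through RefSeq symbols and positions (WBcel235). No sequence was used here.

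The tools were limma 3.58.1 and data.table version 1.17.8 in R 4.3.3, and pandas 2.3.3, numpy 2.4.6 and matplotlib 3.10.9 in Python 3.11.15. Each of 9 comparisons came from 1 limma fit (lmFit, eBayes) with a mean per group over all 15 arrays, with Benjamini-Hochberg adjustment over all probe sets, and calls needed an adjusted p not above 0.05 with a log2 difference of at least 1 in size. The methods describe the replicates as independent. The fit was tested on simulated data.

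Members and lists were chosen with earlier results of these data known. Named are all pud probe sets, pudl-1 and pudl-2, the 10 single-gene probe sets with the highest Pearson correlation with pud-1, the 6 genes on either side of the cluster, and up to 6 members of each list called at least once. Alternatives were an intensity trend, the test of the methods (least significant difference), the replicate number or the array set as a block, only the 6 arrays compared, a filter on low values (above the array median on at least 3 arrays), centring on array medians, single array sets and leaving out each array. Same-numbered arrays deviated together (every residual correlation over 0.1) in 4 of 9 comparisons (H3 0.02 and H3 2 against the control and against each other, and RE against H3 0.2), where a shared number is also a shared array set.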

Additional observations from a re-analysis of the deposited data

How the results depend on the processing

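All 320 alternative values of the pud measurements against the control stayed below 0 (−6.03 to −1.17). Of 5 measurements, those called lower at H3 0.02 were 5 when blocked by array set and 5 with the replicate block plus array set (added after seeing the data), against 3 otherwise, and 0 with only the 6 arrays compared. With only those 6 arrays the count was 2 in RE, 2 at H3 0.2 and 3 at H3 2, against 4, 4 and 5. Over all probe sets the number called lower fell with these 6 arrays too. It was 42 in RE, 9 at H3 0.02, 40 at H3 0.2 and 78 at H3 2, against 157, 94, 188 and 264. Leaving out single arrays gave 0 to 3 at H3 0.02, with 0 without control replicate 1 and 1 without control replicate 2. In these 2 fits 56 and 55 of all probe sets were called lower, against 94. Between H3 2 and H3 0.02 the count was 2 when blocked by array set and 3 with the replicate block plus array set, against 0. Over all probe sets 17 and 14 were called lower in these 2 fits, against 2. The replicate block alone changed no count of pud calls (4 in RE, 3 at H3 0.02, 4 at H3 0.2, 5 at H3 2 and 0 between treatments), nor did the intensity trend, the filter or the centring, and the test of the methods gave 4, 3, 4 and 4 against the control. For single array sets only differences were computed. No promoter motif search was run. Differences that changed sign were none of them called: with single arrays left out, RE minus H3 0.2 ran from −0.47 to 0.39 for pud-1 probe set A, −0.44 to 0.38 for probe set B, −0.62 to 0.65 for pud-2, −0.34 to 0.10 for pud-3 and −0.85 to 0.39 for pud-4, and H3 0.2 minus H3 0.02 from −0.38 to 0.06 for pud-3 (0.01 with the replicate block plus array set) and −0.14 to 1.1 for pud-4. Within single array sets the sign also changed in set A for pud-3 in H3 2 minus H3 0.2 (0.31) and in RE minus H3 0.2 (0.32), and for pud-1 probe set A (−0.06) and pud-2 (−0.09) in RE minus H3 0.2. The cause of these changes was not tested. Of the 10 genes most like pud-1, 3 were among the 10 by Spearman's rank correlation. The 3 arrays per group and values of pud-3 and pud-4 near background limit what can be read.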
